A study of Mus musculus with 2 samples.

Results

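The 10 genes described here belong to growth factor reception and insulin signalling, and they were followed through mouse islet cells: the ErbB receptors Egfr, Erbb2 and Erbb3, the insulin receptor Insr, the insulin-like growth factor receptor Igf1r, the insulin receptor substrates Irs1 and Irs2, the prolactin receptor Prlr, the growth hormone receptor Ghr and Met, the receptor of hepatocyte growth factor. They were chosen by symbol, and all 10 were among the 31054 features of both libraries. Single-cell RNA-seq (10x Genomics) had been run on islets of male C57Bl6 mice at 12 weeks of age, with 1 library of Tg7 mice and 1 of Wild-type littermates. Tg7 mice overexpress the microRNA miR-7 in β-cells, and the study used them as a diabetic model of β-cell dedifferentiation. Animals of both genotypes carried a rat Ins2-Cre and a floxed-stop tdTomato reporter, which labels β-cells. How many mice were pooled for each library is not stated in the sources used.

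Barcodes with at least 1000 UMIs (unique molecular identifiers, the counted molecules) and at most 20% mitochondrial UMIs were kept, which left 1006 of 1123 barcodes in Tg7 and 755 of 855 in Wild-type. No barcode occurred in both libraries. Median depth was 24485 UMIs per cell in Tg7 and 39681 in Wild-type, and hormone genes took 43.1% of all UMIs in Tg7 and 63.3% in Wild-type. Cells were grouped by the hormone with the largest share of their UMIs. Insulin-led cells numbered 727 in Tg7 and 550 in Wild-type, Gcg-led cells 215 in Tg7 and 159 in Wild-type, Sst-led cells 21 in Tg7 and 30 in Wild-type, and Ppy-led cells 43 in Tg7 and 16 in Wild-type. The mature miR-7 is not read by this assay, so the genotype labels could only be read through other genes: the β-cell maturity factor Mafa had 21.7 CPM in Tg7 insulin-led cells and 503 CPM in Wild-type insulin-led cells, where CPM is the UMI count of a gene per 1000000 UMIs of the summed cells, the 7 hormone genes left out of the total. The α-cell gene Irx2 stood at 121 CPM in Tg7 Gcg-led cells and at 120 in Wild-type Gcg-led cells, and the δ-cell gene Hhex at 275 in Tg7 Sst-led cells and 325 in Wild-type Sst-led cells. Insulin-led cells were not pure: 171 cells in Tg7 and 29 in Wild-type held a second hormone at 10% or more of the insulin UMIs. Among insulin-led cells, those with at least 3 endothelial markers numbered 7 in Tg7 and 23 in Wild-type, and cells with at least 3 leucocyte markers 21 in Tg7 and 10 in Wild-type. At least 3 stellate markers were held by 5 cells in Tg7 and 14 in Wild-type, and at least 3 ductal markers by 332 cells in Tg7 and 47 in Wild-type, with a summed ductal level of 696 CPM in Tg7 and 426 in Wild-type. Their part in the ratios was not tested, apart from the values given without such cells.

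Receptors of this kind turn a hormone or growth factor outside the cell into phosphorylation inside it. Egfr, its relatives, Insr, Igf1r and Met are tyrosine kinases themselves, whereas Prlr and Ghr have no kinase and work through JAK2 and STAT5. Irs1 and Irs2 are scaffolds that pass the signal of Insr and Igf1r on to PI3K and AKT. In islets, Irs2 is known for its part in keeping β-cell mass, and Prlr for the expansion of β-cells in pregnancy.

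The agent that sets Tg7 apart is miR-7, and its mature sequence is shown with the seed, bases 2 to 8, in capitals, because a matching stretch in a 3′ untranslated region is how it recognises a transcript. Both mouse loci of miR-7a, on chromosomes 7 and 13, give the same sequence in RefSeq (GRCm38.p6). A match to the whole seed (GTCTTCC, sense strand) was found in the longest annotated 3′ UTR of 2 of the 10 genes, Irs1 and Erbb3, and each match is shown in capitals within its surroundings. Of 19915 mouse genes with an annotated 3′ UTR, 11.2% held the same 7 letters. The transcripts are those of an older annotation (NCBIM37) than the mm10 build of the counts. They give Irs2 30 and Igf1r 197 bases of 3′ UTR, so little was searched in these genes. The shorter match TCTTCC, which 39.9% of all 3′ UTRs held, was present 7 times in the 6303 bases of Egfr. Insr and Erbb3 held it 3 times each, Irs1 2 times, and Met and Erbb2 1 time each. It was not found in the 7742 bases of Prlr, nor in Ghr, Igf1r and Irs2. The share over all genes does not allow for the length of a 3′ UTR.
mmu-miR-7a-5p: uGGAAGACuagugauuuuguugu
Irs1 3′ UTR, match from base 113: ccaggacctcacGTCTTCCtcttcagtaga
Erbb3 3′ UTR, match from base 1743: ttcaaacctcaaGTCTTCCtggatgggaac

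The 3 genes counted as lower in Tg7 insulin-led cells, with hormones left out of the total, were Egfr, Igf1r and Prlr. A promoter window of each, 250 bases before to 50 after a start (RefSeq, GRCm38.p6, + strand), is shown. Whether they share a regulator was not tested. Capitals mark the words CTAATG and TTAATG, and likewise CTAATT and TTAATT, on either strand, which are spelled around the TAAT core that homeodomain factors such as Pdx1 bind. Of 32851 such windows, 28.4% held at least 1 of these words. The windows of Egfr and of 1 of the 3 Prlr starts held 1 match each, and that of Igf1r held none. For Prlr the window with the match is shown, and those at chr15:10176988-10177287 and chr15:10223656-10223955, not shown, held none. The genes themselves lie at chr11:16752203-16913907 (Egfr), chr7:67952257-68233668 (Igf1r) and chr15:10177238-10349190 (Prlr).
Egfr, chr11:16751953-16752252: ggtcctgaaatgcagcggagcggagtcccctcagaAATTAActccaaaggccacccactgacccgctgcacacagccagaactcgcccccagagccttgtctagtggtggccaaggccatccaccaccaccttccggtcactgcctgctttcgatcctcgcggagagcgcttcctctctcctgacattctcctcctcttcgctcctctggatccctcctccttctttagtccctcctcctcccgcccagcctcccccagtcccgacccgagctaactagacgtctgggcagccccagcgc
Igf1r, chr7:67952007-67952306: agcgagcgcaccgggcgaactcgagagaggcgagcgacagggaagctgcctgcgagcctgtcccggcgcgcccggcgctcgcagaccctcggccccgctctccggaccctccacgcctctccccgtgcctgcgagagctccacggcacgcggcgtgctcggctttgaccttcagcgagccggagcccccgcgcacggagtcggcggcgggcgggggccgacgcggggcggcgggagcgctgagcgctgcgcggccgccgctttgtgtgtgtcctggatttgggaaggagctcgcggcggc
Prlr, chr15:10293401-10293700: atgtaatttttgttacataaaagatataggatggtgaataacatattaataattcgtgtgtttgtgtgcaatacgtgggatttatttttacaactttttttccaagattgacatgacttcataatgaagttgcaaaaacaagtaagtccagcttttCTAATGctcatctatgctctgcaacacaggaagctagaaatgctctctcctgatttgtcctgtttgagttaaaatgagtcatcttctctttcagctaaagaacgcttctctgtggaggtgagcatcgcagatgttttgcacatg

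Levels of members are given in the same CPM, summed over the cells of a group. Intervals are exact 95% Poisson intervals for a level and conditional exact binomial intervals for a ratio of Tg7 over Wild-type, and shares of cells have Clopper-Pearson intervals. They cover counting error only, and with 1 library per genotype no test between genotypes was possible. A gene was counted as higher or lower where it had at least 20 UMIs over both libraries, its ratio passed 2-fold and the interval left out 1. In insulin-led cells 9 of the 10 members had 20 UMIs. Of these 3 were lower, where 7.41% of all 13583 genes were lower, and 0 were higher, where 8.42% of all genes were higher. Scaled to all UMIs, hormones included, 0 members were lower and 2 higher, with 409 of all genes lower and 3820 higher, so the 3 calls rest on leaving the hormones out of the total. The members' median log2 ratio was -0.32, and that of all genes -0.04.

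**Figure D1:**
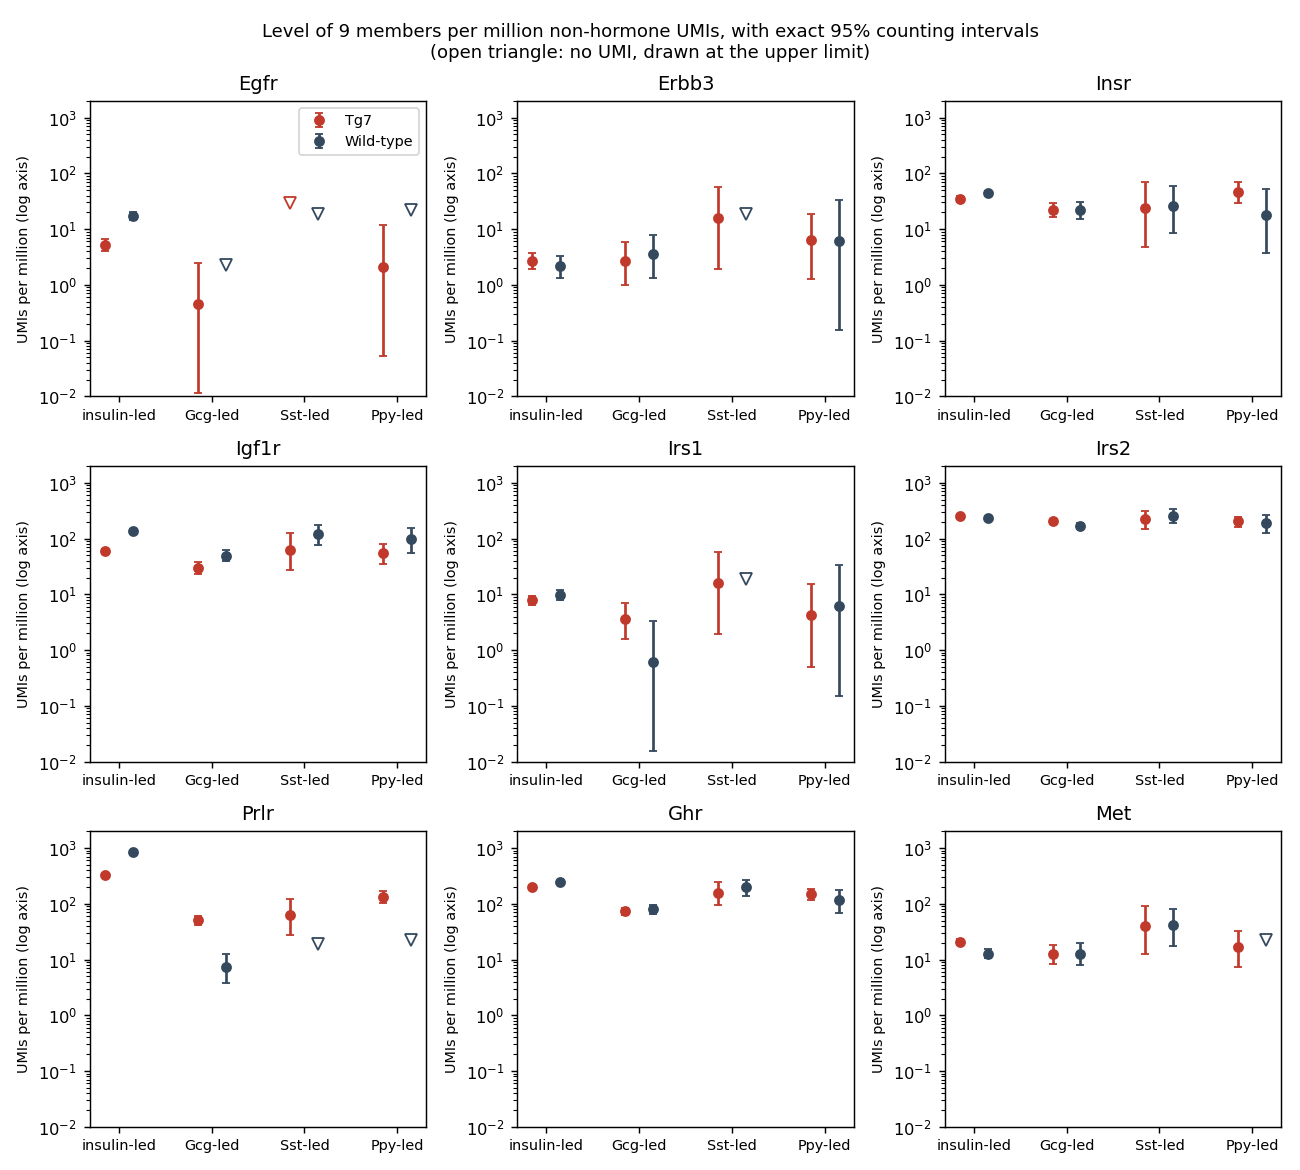
Levels of 9 members in the 4 hormone groups, as CPM on a log axis, for Tg7 (red, left) and Wild-type (dark, right); bars are exact 95% counting intervals, and an open triangle marks a group without a UMI at its upper limit. Prlr stands at 325 CPM in Tg7 insulin-led cells and 833 in Wild-type insulin-led cells, but at 51.2 in Tg7 Gcg-led cells and 7.25 in Wild-type Gcg-led cells. Erbb2 is left out because it had 1 UMI in all these cells.

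Among the hormone receptors, Prlr carried the clearest difference. It was counted 4588 times in Tg7 insulin-led cells, or 325 CPM (316 to 335), and 7696 times in Wild-type insulin-led cells, or 833 CPM (815 to 852). The ratio was 0.390 (0.376 to 0.405), a 2.56-fold lower level in Tg7. The difference was spread over the cells: the 3 cells with most Prlr held 2.31% of its UMIs in Tg7 and 2.12% in Wild-type. In cells thinned to 5000 non-hormone UMIs, the median was 1 Prlr UMI in 673 Tg7 cells and 4 in 524 Wild-type cells, and the 90th percentile was 3 in Tg7 and 7 in Wild-type. At 2000 UMIs, 41.3% of Tg7 cells (37.6 to 45.0) and 70.0% of Wild-type cells (66.0 to 73.9) held a Prlr UMI. Without thinning the shares were 89.0% in Tg7 and 90.9% in Wild-type. Cells of other types were read the same way: 0 of 8 endothelial-marker cells in Tg7 and 0 of 22 in Wild-type held a UMI at 2000 UMIs, where a count of 0, with 3 cells of the total as its limit, allows shares of up to 37.5% in Tg7 and 13.6% in Wild-type. Leucocyte-marker cells, with a median of 4792 UMIs in Tg7 and 8436 in Wild-type, held a Prlr UMI in 0 of 25 cells in Tg7 and 2 of 10 in Wild-type. Their summed Prlr level was 59.9 CPM (28.7 to 110) in Tg7 and 377 CPM (270 to 511) in Wild-type.

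Ghr, the related receptor of growth hormone, was nearer to even. It stood at 198 CPM (191 to 206) in Tg7 insulin-led cells and at 242 (232 to 252) in Wild-type insulin-led cells, a ratio of 0.820 (0.776 to 0.868) that turned to 1.38 when scaled to all UMIs, hormones included. Thinned to 2000 UMIs, 212 of 707 Tg7 cells and 201 of 544 Wild-type cells held a Ghr UMI.

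**Figure D2:**
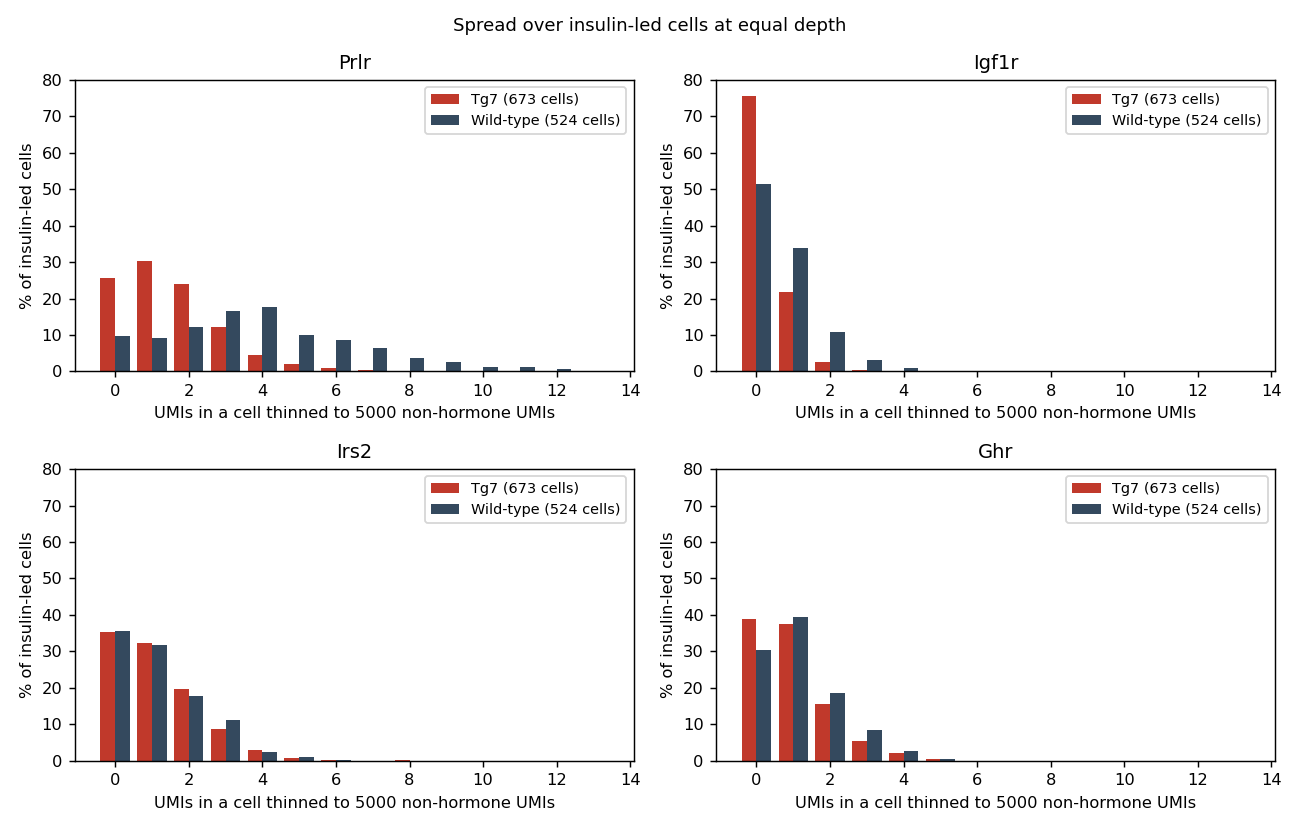
Share of insulin-led cells (%) by the number of UMIs of Prlr, Igf1r, Irs2 and Ghr after each cell was thinned to 5000 non-hormone UMIs, for 673 Tg7 cells (red, left) and 524 Wild-type cells (dark, right). The Prlr counts of Tg7 cells centre on 1 and those of Wild-type cells on 4, whereas the Irs2 counts of the genotypes overlie each other with a median of 1 in both.

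Igf1r, which binds IGF1 and IGF2, passed 2-fold, and Insr did not. Igf1r had 859 UMIs in Tg7 insulin-led cells, 60.9 CPM (56.9 to 65.1), and 1288 UMIs in Wild-type insulin-led cells, 139 CPM (132 to 147). The ratio was 0.437 (0.4002 to 0.477). At 2000 UMIs, 9.90% of Tg7 cells (7.80 to 12.3) and 23.9% of Wild-type cells (20.4 to 27.7) held an Igf1r UMI. At 5000 UMIs the shares were 24.5% in Tg7 and 48.7% in Wild-type.

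Insr itself was lower by a smaller step. Its level was 35.3 CPM (32.3 to 38.6) in Tg7 insulin-led cells and 44.4 (40.2 to 48.9) in Wild-type insulin-led cells, a ratio of 0.796 (0.697 to 0.909), which turned to 1.34 when scaled to all UMIs. Endothelial-marker cells carried far more of it: 424 CPM in Tg7 and 316 in Wild-type, where 72 of the 410 Insr UMIs of insulin-led cells lay in 23 such cells. Without cells that hold 3 or more leucocyte, endothelial or stellate markers the ratio of Insr was 0.886 (0.768 to 1.02), an interval that holds 1. The shares of cells with an Insr UMI at 2000 UMIs, 6.08% in Tg7 (4.44 to 8.11) and 7.54% in Wild-type (5.46 to 10.1), overlapped.

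Of the 2 receptor substrates, Irs2 had 3518 UMIs in Tg7 insulin-led cells, 249 CPM (241 to 258), and 2133 in Wild-type insulin-led cells, 231 CPM (221 to 241), with a ratio of 1.08 (1.02 to 1.141). The shares of cells with an Irs2 UMI at 2000 UMIs were 36.1% in Tg7 and 33.8% in Wild-type, with overlapping intervals. Irs1, with its whole seed match for miR-7, was counted 110 times in Tg7 and 90 times in Wild-type insulin-led cells, or 7.80 CPM in Tg7 and 9.74 in Wild-type. Its ratio of 0.801 (0.600 to 1.07), which turned to 1.35 when scaled to all UMIs, could not be told from 1 at this depth.

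Egfr, the receptor of EGF, TGFα and amphiregulin, had the lowest ratio of the members. It was counted 74 times in Tg7 insulin-led cells, 5.25 CPM (4.12 to 6.59), and 161 times in Wild-type insulin-led cells, 17.4 CPM (14.8 to 20.3). The ratio was 0.301 (0.225 to 0.399), or 3.32-fold lower in Tg7. The UMIs came from 67 of 727 Tg7 cells and 131 of 550 Wild-type cells, with at most 4 in a Tg7 cell and 3 in a Wild-type cell. At 2000 UMIs the shares of cells with an Egfr UMI were 0.849% in Tg7 (0.312 to 1.84) and 3.49% in Wild-type (2.12 to 5.40). Scaled to all UMIs the ratio was 0.508. Without the cells that hold 3 or more markers of a non-endocrine type, ductal markers included, 13 UMIs in Tg7 and 135 in Wild-type were left, and the ratio was 0.149 (0.0772 to 0.263).

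The partners of Egfr were hardly seen. Erbb3, a receptor of neuregulins with little kinase activity of its own and the other gene with a whole seed match, was counted 38 times in Tg7 and 20 times in Wild-type insulin-led cells, a ratio of 1.24 (0.706 to 2.26). In the 2 libraries Erbb2, the partner without a ligand of its own, had 1 UMI in Tg7 and 0 in Wild-type insulin-led cells, and no fold is given.

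Met, by contrast, was higher. It had 291 UMIs in Tg7 insulin-led cells, 20.6 CPM (18.3 to 23.1), and 118 in Wild-type insulin-led cells, 12.8 CPM (10.6 to 15.3). The ratio of 1.62 (1.30 to 2.02) left out 1 but did not reach 2-fold. With 3.54% of Tg7 cells (2.30 to 5.18) and 3.13% of Wild-type cells (1.83 to 4.96) holding a Met UMI at 2000 UMIs, this was not visible in thinned shares at that depth. At 5000 UMIs the shares were 9.81% in Tg7 (7.67 to 12.3) and 4.96% in Wild-type (3.27 to 7.19).

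Hormone genes were left out of the total, and the ratios depend on this choice. Scaled to all UMIs, the median log2 ratio of all genes in insulin-led cells moved by 0.75, to 0.71. Prlr, Igf1r and Egfr were still below 1 on that scale, with ratios of 0.658, 0.737 and 0.508. Insr, Ghr and Irs1 turned to ratios of 1.34, 1.38 and 1.35, or 0.42, 0.47 and 0.43 on the log2 scale, each still under the median gene. Met reached 2.72 and Erbb3 2.10.

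**Figure D3:**
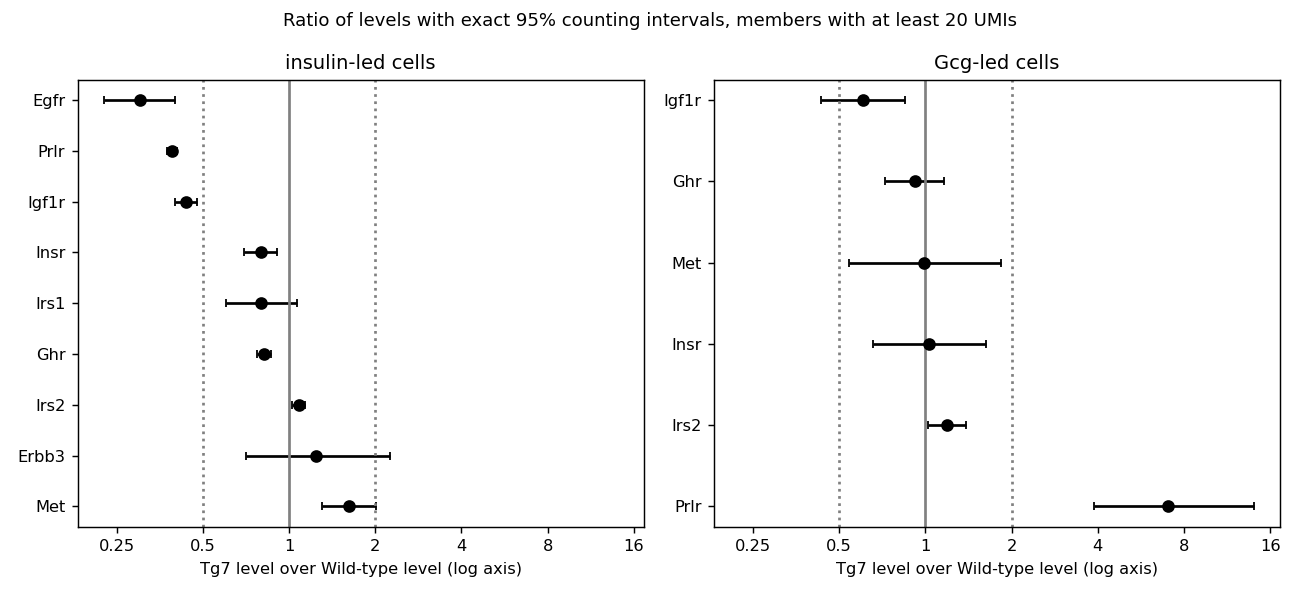
Ratio of the Tg7 level over the Wild-type level on a log axis for the members with at least 20 UMIs, in insulin-led cells (9 genes, left) and Gcg-led cells (6 genes, right), with 95% counting intervals; dotted lines mark 2-fold. Egfr, Prlr and Igf1r lie below 0.5 in insulin-led cells, and in Gcg-led cells Prlr lies at 7.06.

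Tg7 insulin-led cells were then divided by Ins1, whose median share of UMIs was 18.4% in Wild-type insulin-led cells. In 485 Tg7 cells Ins1 was under 1.84% of UMIs, 10% of that median, and in 242 it was at or above it. Of the members, Ghr alone had an interval that left out 1 between these sets. Its ratio below over above the threshold was 0.918 (0.849 to 0.993). The 7 endothelial-marker and 21 leucocyte-marker cells among Tg7 insulin-led cells all lay below the threshold. Over all groups of Tg7, such cells stood at 12.5 and 35.9 CPM of Ghr, and their part in this ratio was not tested. Prlr stood at 319 CPM in the cells below the threshold and 339 in those above, a ratio of 0.941 (0.885 to 1.001), and Igf1r at 62.6 and 57.5, a ratio of 1.09 (0.942 to 1.26). Against Wild-type insulin-led cells, the Tg7 cells at or above the threshold, with a median Ins1 share of 2.94%, had ratios of 0.406 for Prlr (0.385 to 0.429), 0.412 for Igf1r (0.360 to 0.470) and 0.366 for Egfr (0.239 to 0.544). Met was 1.72 (1.30 to 2.25) in the same comparison. No cell of this Tg7 set held 3 endothelial or 3 leucocyte markers. Against the 498 Wild-type cells at or above the same threshold, which also hold no endothelial-marker cell, Insr had a ratio of 0.967 (0.799 to 1.17).

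The Tg7 insulin-led cells with a second hormone at 10% of insulin, 171 of 727, were compared with the other 556. Prlr was 280 CPM in these mixed-hormone cells and 342 in the rest, a ratio of 0.820 (0.765 to 0.878). Ghr was 178 CPM in mixed-hormone cells and 206 in the rest, a ratio of 0.862 (0.790 to 0.9402). Insr went the other way, at 43.5 CPM in mixed-hormone cells and 32.2 in the rest, with a ratio of 1.35 (1.12 to 1.63). The other members with a ratio had intervals that hold 1, and Erbb2, with 1 UMI, had none. Mixed-hormone cells were also deeper, with a median of 39391 UMIs against 27865 in the rest. Endothelial-marker cells, at 424 CPM of Insr in Tg7, were not removed from either set. The part of depth, doublets or such cells in these ratios was not tested.

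Gcg-led cells gave another picture for Prlr and the same direction for Igf1r. Of 6 members with 20 UMIs there, 1 was higher, where 3.05% of all 9981 genes were higher, and 0 were lower, where 2.53% of all genes were lower. Prlr had 114 UMIs in Tg7 Gcg-led cells, 51.2 CPM (42.2 to 61.5), and 12 in Wild-type Gcg-led cells, 7.25 CPM (3.75 to 12.7). The ratio was 7.06 (3.89 to 14.1). Few cells carried it: 28 of 215 in Tg7 and 8 of 159 in Wild-type.

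These Prlr UMIs followed insulin. In Tg7, 109 of the 114 UMIs lay in 23 of the 24 Gcg-led cells with insulin at 1% or more of UMIs, at 202 CPM (166 to 243), and 5 lay in the other 191 cells, at 2.96 CPM (0.962 to 6.91). In Wild-type, 4 UMIs lay among the 3 cells with insulin at 1% or more, and 8 in the other 156, at 4.96 CPM (2.14 to 9.78). Left to cells without a second hormone at 10% of Gcg, 167 in Tg7 and 136 in Wild-type, Prlr had 5 UMIs in each library and a ratio of 0.947 (0.218 to 4.11), so the difference between genotypes was not detectable there. A tdTomato UMI was found in 6 Tg7 Gcg-led cells, which all carried Prlr, 42 UMIs in all, and in 2 Wild-type Gcg-led cells, which had none. The 6 Tg7 cells were all among the 24 with insulin at 1% or more, so their 42 UMIs are part of the 109. These divisions were chosen after the values were seen. The 24 insulin-bearing Tg7 cells had a median of 35481 UMIs, against 16446 in the other 191, and a median Gcg share of 15.2% against 43.2%. Scrublet called 3 of the 24 and 0 of the 191 as doublets, and without all called barcodes the ratio was 6.90. The part of doublets in the 24 cells was not tested.

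**Figure D4:**
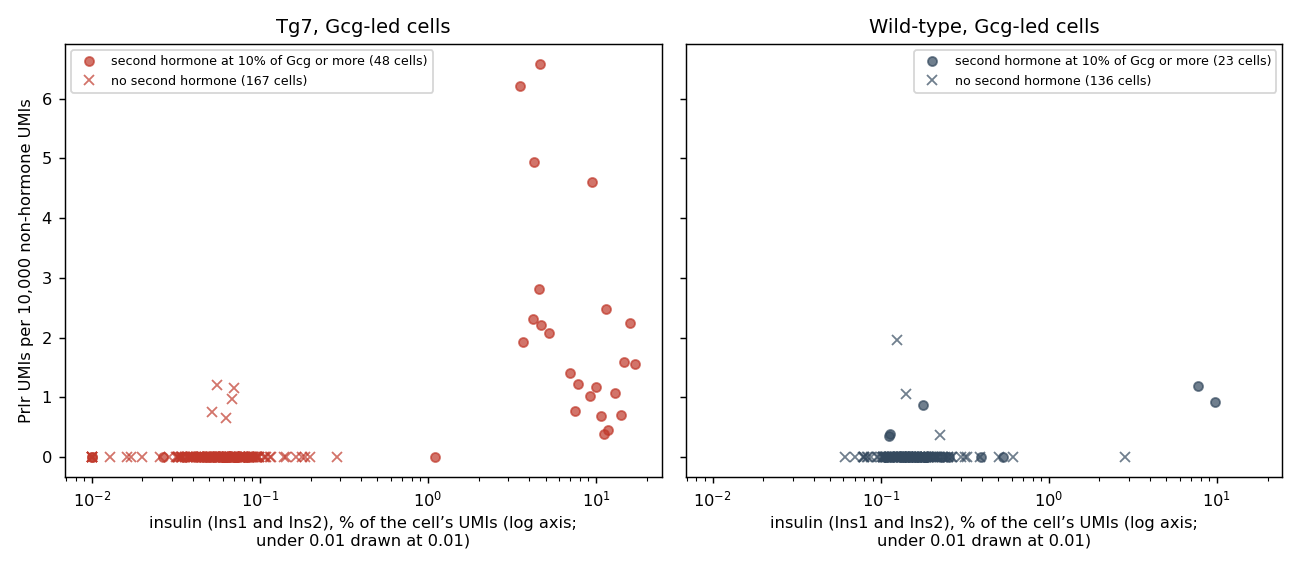
Each point is a Gcg-led cell of Tg7 (left, 215 cells) or Wild-type (right, 159 cells), placed by its insulin share of UMIs (log axis, %) and its Prlr UMIs relative to its non-hormone UMIs; circles have a second hormone at 10% of Gcg or more and crosses do not. In Tg7 the cells with Prlr sit almost all among the 24 cells at or above 1% insulin, where it was counted in 23 of 24, against 5 of the other 191.

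Igf1r had 67 UMIs in Tg7 Gcg-led cells, 30.1 CPM (23.3 to 38.2), and 82 in Wild-type Gcg-led cells, 49.5 CPM (39.4 to 61.5). The ratio of 0.607 (0.433 to 0.849) left out 1 without passing 2-fold. In Gcg-led cells without a second hormone it was 0.473 (0.290 to 0.758), from 28 UMIs in Tg7 and 56 in Wild-type. Irs2 had a ratio of 1.19 (1.03 to 1.39) in Gcg-led cells, which without the mixed-hormone cells was 1.15 (0.958 to 1.38). Ghr, Insr and Met had ratios of 0.919, 1.03 and 0.991 there, with intervals that hold 1. Irs1 was counted 8 times in Tg7 and 1 time in Wild-type, and Erbb3 6 in each, too few for the count of calls.

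The smaller groups gave values with wide intervals. Igf1r was 63.0 CPM in Tg7 Sst-led cells and 119 in Wild-type Sst-led cells, a ratio of 0.531 (0.205 to 1.23). It was 54.3 in Tg7 Ppy-led cells and 96.7 in Wild-type Ppy-led cells, a ratio of 0.561 (0.290 to 1.12), so all 4 hormone groups had a ratio under 1 and in 2 of them the interval left out 1. Prlr had 64 UMIs in 15 of the 43 Tg7 Ppy-led cells, and no UMI in the 16 Wild-type ones. Set against a floor of 3 UMIs over the Wild-type group, this was 7.37-fold higher in Tg7, which is not the lower limit of an interval. Of these UMIs, 50 lay in the 20 cells with a second hormone and 14 in 3 of the other 23. In Sst-led cells Prlr had 8 UMIs in 2 Tg7 cells, both with a second hormone, and 0 in Wild-type. This was 4.07-fold higher by the same floor but under the minimum of 20 UMIs.

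Within a library, the hormone groups differed from each other in the same members. In Wild-type, Prlr was 115 times as high in insulin-led as in Gcg-led cells (65.8 to 223). In Tg7 it was 6.36 times as high (5.28 to 7.72), with Ppy-led cells between at 134 CPM and Sst-led cells not told apart from Gcg-led cells. In that Tg7 value 109 of the 114 Gcg-led UMIs are those of the 24 cells with insulin at 1% or more, and the other 191 cells stood at 2.96 CPM. By value, Ghr ran from insulin-led over Sst-led to Ppy-led and Gcg-led cells in both libraries. Sst-led and Ppy-led levels of Ghr were not told apart in either library, nor were Ppy-led and Gcg-led levels in Wild-type. Its insulin-led and Sst-led levels did not differ beyond counting error in either, while insulin-led cells stood 2.73 times (2.33 to 3.21) above Gcg-led cells in Tg7 and 3.05 times (2.56 to 3.67) in Wild-type. Igf1r had its lowest level in Gcg-led cells in both libraries, although Tg7 Sst-led and Gcg-led cells were not told apart. It was 2.03 times (1.58 to 2.64) under insulin-led cells in Tg7 and 2.82 times (2.25 to 3.56) in Wild-type, and its other 3 groups were not told apart. Insr was 1.57 times (1.17 to 2.15) as high in insulin-led as in Gcg-led cells in Tg7 and 2.04 times (1.45 to 2.96) in Wild-type. In Wild-type, 72 of the 410 insulin-led Insr UMIs lay in 23 endothelial-marker cells. Wild-type Gcg-led cells held no such cell, and their part in the ratio was not tested. Tg7 Ppy-led cells, at 46.0 CPM of Insr, were not told apart from Tg7 insulin-led cells. Egfr was all but confined to insulin-led cells, with 1 UMI in Tg7 Gcg-led cells, 1 in Tg7 Ppy-led cells and none elsewhere. In Wild-type its insulin-led level was 9.62-fold that of Gcg-led cells against a floor of 3 UMIs, and the lower limit of the interval was 7.73. For Sst-led and Ppy-led cells, the depth allowed no such statement on Egfr. Irs2 differed less, with insulin-led cells 1.23 times (1.12 to 1.36) above Gcg-led cells in Tg7 and 1.36 times (1.20 to 1.55) in Wild-type. Met was highest in Wild-type Sst-led cells, 3.23 times (1.36 to 6.58) above insulin-led cells on 8 UMIs, and Tg7 Sst-led cells were not told apart from Tg7 insulin-led cells.

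For likeness, the levels over 6 points (insulin-led, Gcg-led and Sst-led cells of both libraries) were compared with those of 8519 other genes that had at least 300 UMIs. The points share their library's depth, and the best of many genes over 6 points is a description only. Eef1akmt3 was nearest to Prlr (Pearson r = 0.996 of log2 levels), with 18.8 CPM in Tg7 and 24.2 in Wild-type insulin-led cells, and 6.73 in Tg7 and 2.42 in Wild-type Gcg-led cells. Tatdn2 (r = 0.998) and Insm1 (r = 0.994), an endocrine transcription factor, were nearest to Igf1r. Smim14 (r = 0.995) and Nkx6-1 (r = 0.995), a β-cell transcription factor, were nearest to Insr, and B3galt5 (r = 0.999) to Ghr.

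Around the members, 161 genes on 9 lists of ligands, partners and downstream steps were read in insulin-led cells, with the shares of 8.42% higher and 7.41% lower over all genes as the background. Of 11 EGF family ligands 7 were measured, 2 higher and 1 lower. The neuregulin genes Nrg1, whose product binds Erbb3 and Erbb4, and Nrg3, whose product binds Erbb4, were higher. Nrg1 had 79 UMIs in 74 Tg7 cells and 7 in 7 Wild-type cells, a ratio of 7.39 (3.42 to 19.0). Nrg3 had 49 in Tg7 and 0 in Wild-type, 10.7-fold higher against a floor of 3 UMIs. Areg, which encodes amphiregulin, was counted 16 times in Tg7 and 36 times in Wild-type (ratio 0.291). The commonest ligand gene, Hbegf, was at 55.7 CPM in Tg7 and 68.5 in Wild-type, a ratio of 0.813 (0.732 to 0.904). Of 11 measured partners and brakes of ErbB receptors, 1 passed 2-fold, Lrig1, which promotes the turnover of ErbB receptors: 184 UMIs in Tg7 and 38 in Wild-type, a ratio of 3.17 (2.23 to 4.62). The adaptor Shc1 stood at 0.595 (0.542 to 0.653).

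Of 8 measured genes for ligands, binding proteins and further receptors of insulin and IGF, 1 was higher and 4 lower, with a median log2 ratio of -0.90. Insrr, the insulin receptor-related receptor, stood at 53.1 CPM in Tg7 and 149 in Wild-type, a ratio of 0.357 (0.326 to 0.391), and its UMIs were spread over 394 Tg7 and 426 Wild-type cells. Igfals, the acid-labile subunit of the circulating IGF complex, had 13.5 CPM in Tg7 and 41.2 in Wild-type (ratio 0.327). Igfbp3 had a ratio of 0.152, but its UMIs came from 6 Tg7 and 25 Wild-type cells. The summed endothelial markers of these groups were 113 CPM in Tg7 and 554 in Wild-type, and their part in the Igfbp3 ratio was not tested. Igfbp4 was higher, with 104 UMIs in 25 Tg7 cells and 20 in 13 Wild-type cells (ratio 3.41, 2.10 to 5.80). Both IGF ligand genes were nearly silent in these cells, with 16 Igf1 UMIs in Tg7 and 13 in Wild-type, and 0 of Igf2 in Tg7 and 1 in Wild-type.

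At the insulin receptor, 2 of 13 measured adaptors and brakes were higher and 0 lower: Sh2b2, with 34 UMIs in Tg7 and 6 in Wild-type (ratio 3.71), and Enpp1, an ectoenzyme reported to hinder the insulin receptor, with 63 in Tg7 and 11 in Wild-type (ratio 3.75). Grb14, an inhibitor of the receptor kinase, came just short at 54.5 CPM in Tg7 and 27.9 in Wild-type, a ratio of 1.95 (1.69 to 2.26). Dok5 had a ratio of 1.74 (1.42 to 2.15). At the low end, Sh2b3, Ptpn2 and Grb10 had ratios of 0.661, 0.755 and 0.794, with intervals that left out 1. Of 30 genes of PI3K, AKT, FOXO and mTOR, all measured, 0 were higher and 0 lower. Their ratios ran from 0.531 for Trib3 (0.447 to 0.631), a pseudokinase that binds AKT, to 1.34 for Rptor (1.16 to 1.56), and Foxo1 had 1.21 (1.10 to 1.34).

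**Figure D5:**
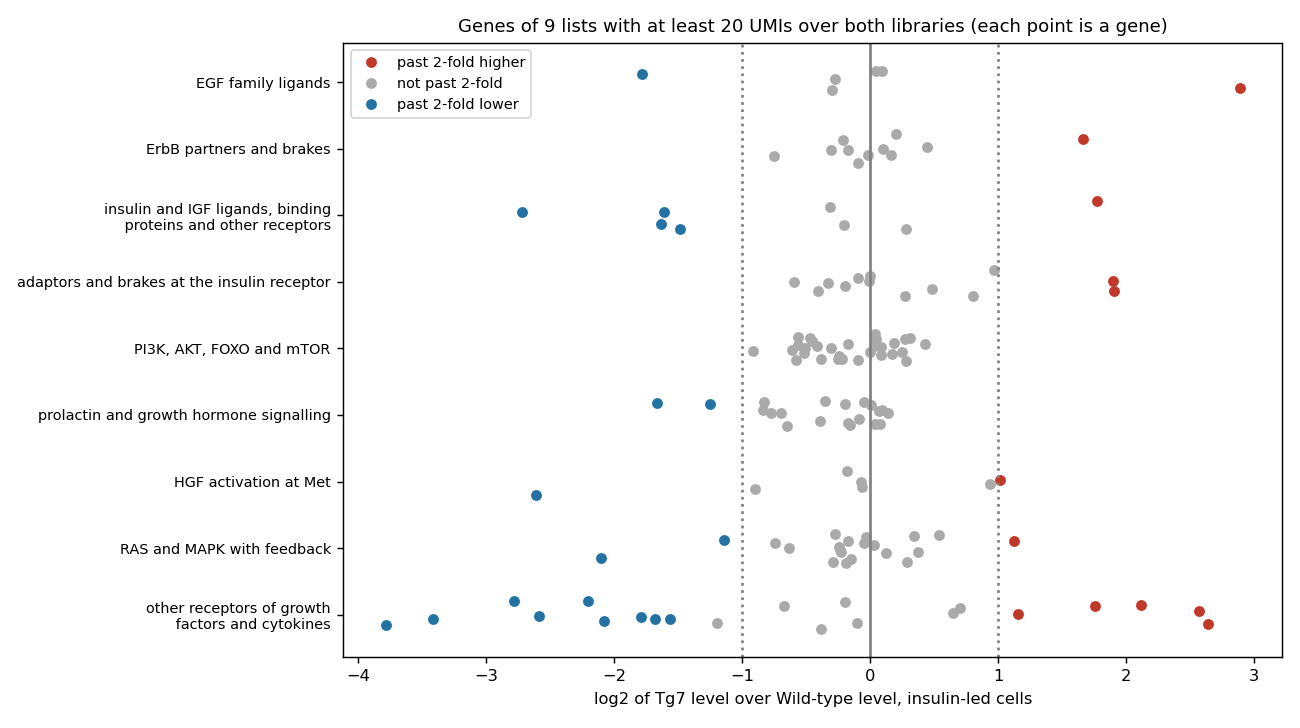
log2 ratio of Tg7 over Wild-type in insulin-led cells for the genes of 9 lists with at least 20 UMIs over both libraries and at least 1 UMI in each, 1 point per gene, coloured by whether the ratio passed 2-fold higher (red), lower (blue) or neither (grey); Nrg3, without a UMI in Wild-type, is not drawn. The 30 genes of PI3K, AKT, FOXO and mTOR all lie between the dotted 2-fold lines, whereas the other receptors spread to both sides.

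Downstream of Prlr and Ghr, 20 of 21 genes were measured, 0 higher and 2 lower, and 14 had a ratio below 1. Over all genes, 7267 of 13583 had a ratio below 1 in insulin-led cells. Stat3 was counted 973 times in Tg7 and 1517 times in Wild-type, or 69.0 CPM in Tg7 and 164 in Wild-type, a ratio of 0.420 (0.387 to 0.456). Socs3, a feedback inhibitor of JAK signalling, stood at 30.6 CPM in Tg7 and 97.1 in Wild-type, a ratio of 0.315 (0.280 to 0.353). The STAT5 targets Cish and Socs2, feedback inhibitors as well, had ratios of 0.586 (0.457 to 0.750) and 0.562 (0.489 to 0.644), and Stat5a and Stat5b 0.558 and 0.636, none past 2-fold. Jak2, the kinase that both receptors use, had a ratio of 0.889 with an interval that holds 1. At the high end, Bcl6, Tyk2 and Socs6 had ratios of 1.10, 1.07 and 1.06, each with an interval that holds 1. On the scale of all UMIs every log2 ratio of these lists in insulin-led cells shifts up by the 0.75 given above.

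Around Met, 7 of 10 genes were measured, 1 higher and 1 lower. Plxnb1, a plexin that pairs with Met, passed 2-fold with 31.9 CPM in Tg7 and 15.8 in Wild-type, a ratio of 2.02 (1.67 to 2.45). Hgfac, the protease that activates hepatocyte growth factor, came near it with a ratio of 1.91 (1.70 to 2.15). Hpn was lower on 5 UMIs in 5 Tg7 cells and 20 UMIs in 3 Wild-type cells. Hgf itself was counted 16 times in Tg7 and 3 times in Wild-type, under the minimum. Of 21 RAS and MAPK genes, 1 was higher and 2 lower: Spred3 had a ratio of 2.18 (1.60 to 3.02), Spry4 of 0.233 (0.1505 to 0.352) and Spry1 of 0.454 (0.341 to 0.603), its UMIs lying in 57 Tg7 and 32 Wild-type cells.

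Among 21 measured receptors of other growth factors and cytokines, 5 were higher and 9 lower. Gfra1, a co-receptor of GDNF, was higher, with 199 UMIs in 143 Tg7 cells and 22 in 15 Wild-type cells, a ratio of 5.92 (3.81 to 9.67), as was Kit, the receptor of stem cell factor, with 66 in Tg7 and 10 in Wild-type (4.32, 2.21 to 9.43). Lifr and Il6st, which form the receptor of leukaemia inhibitory factor, were lower, with ratios of 0.236 (0.201 to 0.276) and 0.339 (0.282 to 0.406), counted in 176 and 143 Tg7 cells and in 322 and 232 Wild-type cells. Ntrk2 and Il6ra were higher by less than 2-fold, at 1.62 and 1.56. Flt1 and Kdr, receptors of VEGF and endothelial genes, had ratios of 0.166 and 0.217. Their UMIs came from 8 and 11 Tg7 cells and from 24 and 25 Wild-type cells, close in number to the 7 Tg7 and 23 Wild-type cells with 3 endothelial markers. Others of the 9 lower genes were also counted in few cells: Tek in 7 Tg7 and 21 Wild-type cells, Pdgfrb in 3 Tg7 and 14 Wild-type, Mertk in 3 Tg7 and 13 Wild-type, Axl in 13 Tg7 and 18 Wild-type, and Fgfr3 in 2 Tg7 and 7 Wild-type cells. The part of endothelial and stellate cells in this count was not tested.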

How the data were processed

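Single-cell UMI counts of 1 Tg7 and 1 Wild-type islet library were used as the authors deposited them. Per the submitters' processing notes, reads were demultiplexed with bcl2fastq 2.17.1.14, aligned to mm10 with STAR and counted by Cell Ranger 3.0.2. No source used here names the annotation release. Barcodes were filtered and grouped by leading hormone as described above. This makes no use of the study's cell classes. Counts were summed per group, because cells are not replicates, and no p-value was computed. Hormone genes were left out of the scaling, as they take an unequal part of UMIs. Ratios, intervals and thinning were made in Python 3.11.15 with scipy 1.17.1 and tested on simulated data. For doublets, Scrublet (scanpy 1.11.5) was run, and it marked 14 Tg7 and 11 Wild-type barcodes. They were removed only in an alternative. TMM factors came from edgeR 4.0.16. A ratio against 0 UMIs was set against a floor of 3. All members were named, with up to 2 most similar genes per member. For each list, the 3 highest and 3 lowest ratios with at least 100 UMIs were picked out, but not all are given in the text. Other list genes with their counts or ratios were chosen after their values were seen. The members and lists were chosen with earlier results of these data known.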

Additional observations from a re-analysis of the deposited data

Results flagged for a closer look

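Prlr moved in opposite directions in 2 cell groups. Its ratio of Tg7 over Wild-type was 0.390 in insulin-led cells and 7.06 in Gcg-led cells, and the intervals lay on opposite sides of 1. With 1 library per genotype the difference between the groups was not tested. In Gcg-led cells without a second hormone the ratio was 0.947, from 5 UMIs in each library.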

How the results depend on the processing

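Scaling to all UMIs moved log2 ratios in insulin-led cells to -0.60 for Prlr, 0.47 for Ghr and 0.42 for Insr, the last 2 reversed in sign, since hormone RNA then counts in the total. With it 3820 genes were higher and 409 lower, and among members 2 were higher, Met and Erbb3, and 0 lower. A minimum of 100 UMIs left 599 genes higher and 628 lower. Without cells with 3 or more non-endocrine markers, a rule that through ductal genes also removed many endocrine cells, Prlr had a log2 ratio of -1.44 in insulin-led cells, Egfr a ratio of 0.149 there, and Prlr a ratio of 3.90 in Gcg-led cells. Without mixed-hormone cells the log2 ratio of Prlr in Gcg-led cells was -0.079, the sign reversed, on 5 UMIs in each library. Of 99 member values in insulin-led cells 86 held, 11 moved and 2 reversed. In Gcg-led cells 59 of 60 held, and in Sst-led cells all 30 held. TMM factors, barcode filters, removal of called doublets, a minimum hormone share and the mean over cells were among these settings. Held values lay within the counting interval of the main ratio, but a held value could change its call or sign. Scaled to all UMIs, Erbb3 in insulin-led cells held at 2.10 (1.19 to 3.81), although it became a higher call. On that scale Insr in Gcg-led cells held at 0.954, its sign reversed. Igf1r in Gcg-led cells without a second hormone held at 0.473, past 2-fold. The leucocyte, endothelial and stellate rule and the divisions of Gcg-led cells were chosen after seeing the data. No replicate could be left out, and no paired analysis was possible because each genotype has 1 library.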
